A study of Mus musculus with 9 samples.

Results

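The 50 genes described here are the Wnt ligands, their receptors, their secreted antagonists, and the nuclear effectors and feedback targets of the pathway, as measured by RNA sequencing of PPTR cells with and without a Cas9 edit in Vcam1. They were taken by gene symbol from a table of 55276 symbols: 19 Wnt ligands, 12 receptors (the Frizzled genes with Lrp5 and Lrp6), the 5 genes Lgr4, Lgr5, Lgr6, Rnf43 and Znrf3, 8 antagonists of the Dkk and Sfrp families, and 6 nuclear effectors and feedback targets (Ctnnb1, Lef1, Tcf7, Tcf7l1, Tcf7l2 and Axin2). Of the 50, 33 had enough counts to be tested and 17 did not.

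PPTR cells are a mouse intrahepatic cholangiocarcinoma line from liver cancer organoids, with Prom1CreERT2 and Rosa-ZsGreen among the alleles that the control and edited cells all share. Cre activity in this model was driven by Prom1. The groups were Vcam1 ctrl cells, labelled WT, and the clones Vcam1 KO1 and Vcam1 KO2, each grown from 1 cell after editing with a guide against exon 2 of Vcam1, with 3 libraries per group and 9 in all. All were grown in culture without other cell types, and the 3 libraries of a group came from different passages, so p values measure the spread between passages of 1 culture or 1 clone. A clone is 1 edited cell's progeny, so the edit and other features of that cell cannot be told apart within 1 clone.

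Wnt proteins are secreted, lipid-modified ligands that bring a Frizzled receptor together with LRP5 or LRP6. Without them, a complex of APC, AXIN, GSK3 and CK1 marks beta-catenin (Ctnnb1) for breakdown. With them, beta-catenin persists, enters the nucleus and acts through the TCF and LEF factors on targets that include the pathway's own brakes, such as Axin2, Rnf43, Znrf3, Notum and Nkd1. RNF43 and ZNRF3 remove Frizzled receptors from the cell surface, and R-spondins acting through LGR4, LGR5 and LGR6 block that removal. WNT5A, WNT5B and WNT11 are best known for signals that do not need beta-catenin, among them planar cell polarity. In the bile duct lineage, raised WNT7B and WNT10A have been described in cholangiocarcinoma.

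The libraries held between 53415907 and 125223073 counts, so that 3 counts, taken as the limit of detection, corresponded to 0.0239 to 0.0554 CPM, the count scaled to library size with TMM factors. Vcam1 itself was lower in every clone library (83 to 128 CPM) than in every control library (221 to 329 CPM). Its RNA was thus reduced and not absent, and counts per gene do not show whether the edited transcript is in frame. The paper reports that both clones lost Vcam1 expression by qRT-PCR and by flow cytometry. RNA counts do not measure the protein. Of 10 epithelial and biliary markers, 7 were lower and 1, Spp1, was higher in each clone than in control. This put 80.0% as called in each clone, against 59.9% of all genes in KO1 and 51.4% in KO2. Krt8, Krt18, Krt19 and Cdh1 stood at 424 CPM or above in the control libraries and at 1.61 CPM or below in every clone library, while Sox9, also on the list, stood at 107 to 378 CPM in the clones. The sum of the list, to which Spp1 contributed most in the clones, was 13569 to 15250 CPM in control, 10618 to 11078 in KO1 and 7635 to 11082 in KO2. The summed level of 12 fibroblast and stellate cell markers was 432 to 837 CPM in control, 10477 to 13052 in KO1 and 6220.5 to 7532 in KO2, while Lrat and Thy1 stayed at or below 0.287 CPM throughout. Of the 12 fibroblast and stellate cell markers, 9 were tested. In KO1, 6 of them were higher and 1 was lower, and in KO2, 7 were higher. Calls covered 77.8% in each clone, against 59.9% of all genes in KO1 and 51.4% in KO2. These shifts in markers accompany every comparison with control below, and their part in the Wnt results was not tested. In cultured cells too, fewer cells of 1 kind and less RNA per cell cannot be told apart. KO1 replicate 3 stood apart from the other libraries of its clone, with a summed level of 15 proliferation genes of 292 CPM against 1057 to 3133 CPM elsewhere.

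Most of the tested Wnt genes differed from control in each clone, 16 of the 23 called in both in the same direction and 7 in opposite directions. In KO1, 16 of the 33 were higher and 10 lower than in control (26 called, 78.8%), against a background of 59.9% of all 17672 tested genes, 29.9% higher and 30.0% lower (edgeR's quasi-likelihood test, adjusted p under 0.05). In KO2, 20 were higher and 8 lower (28 called, 84.8%), against 51.4% of all genes, 25.3% higher and 26.1% lower. The clones differed from each other directly at 24 of the 33 (72.7%), with 13 higher and 11 lower in KO1, against 38.7% of all genes, 20.2% higher and 18.5% lower. The median log2 fold change of the 33 was 0.33 in KO1 and 1.06 in KO2, where the median of all genes was 0.02 and 0.00. Both clones were compared with the same 3 control libraries, so their agreement is not independent. Set side by side, 13 genes were higher in both clones, 3 were lower in both (Wnt7a, Fzd6 and Dkk2), 6 were lower in KO1 and higher in KO2 (Wnt4, Wnt6, Wnt10a, Rnf43, Lgr6 and Tcf7), and 1 was the reverse (Fzd4). Of all 17672 tested genes, 18.3% were higher in both clones, 19.4% lower in both, 1.11% lower in KO1 and higher in KO2, and 0.821% the reverse, against 39.4%, 9.09%, 18.2% and 3.03% of the 33. Wnt9a and Znrf3 passed in neither clone. Where groups are said below not to overlap, the share of all tested genes without overlap was 66.0% for KO1 against control, 62.1% for KO2 against control and 54.9% for KO1 against KO2.

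**Figure D1:**
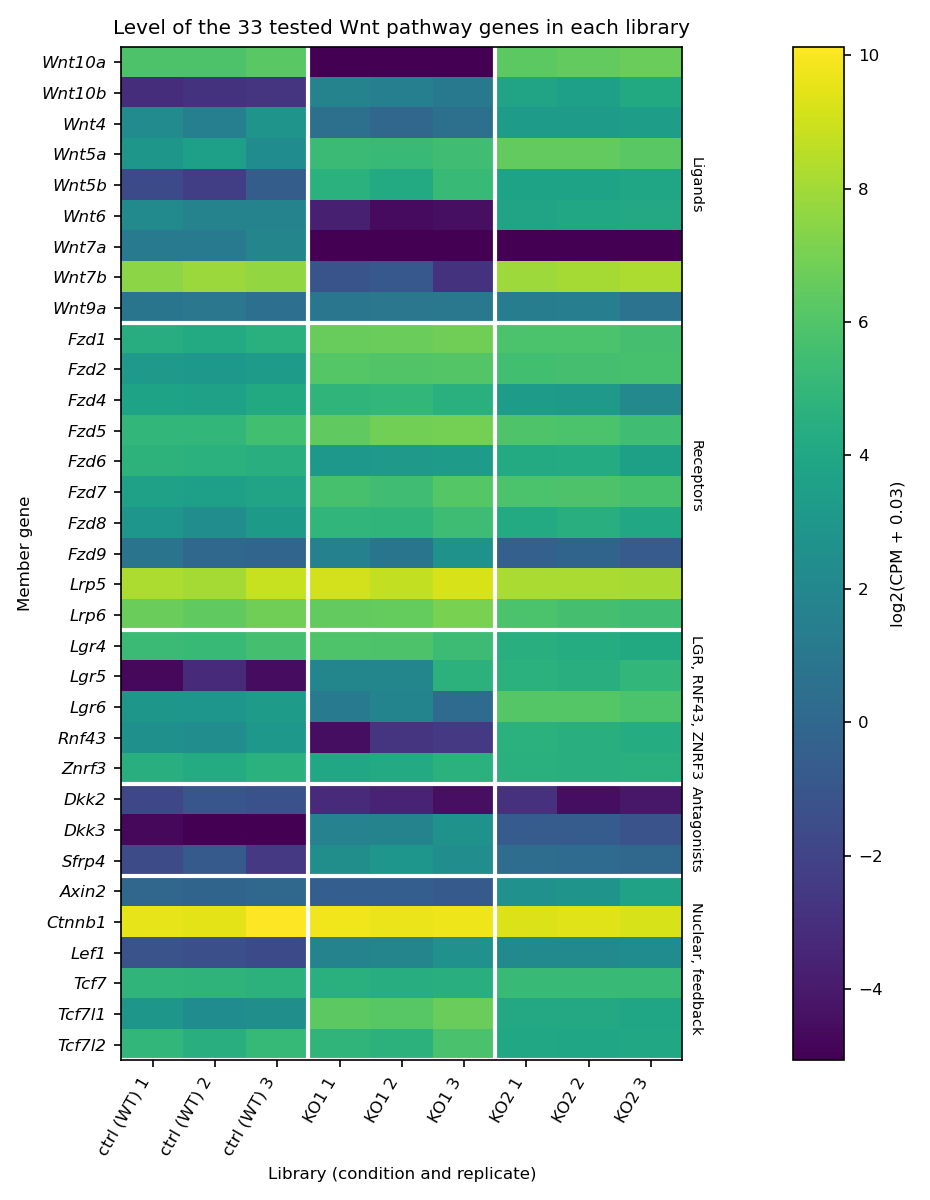
Level of the 33 tested Wnt pathway genes (rows, grouped by role) in each of the 9 libraries (columns), as log2(CPM + 0.03), from dark (low) to yellow (high). Wnt7b, Wnt10a, Wnt6 and Rnf43 are dark in the 3 KO1 libraries, while Wnt10b, Wnt5b, Lgr5, Dkk3 and Lef1 are lighter in all 6 clone libraries than in control.

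**Figure D2:**
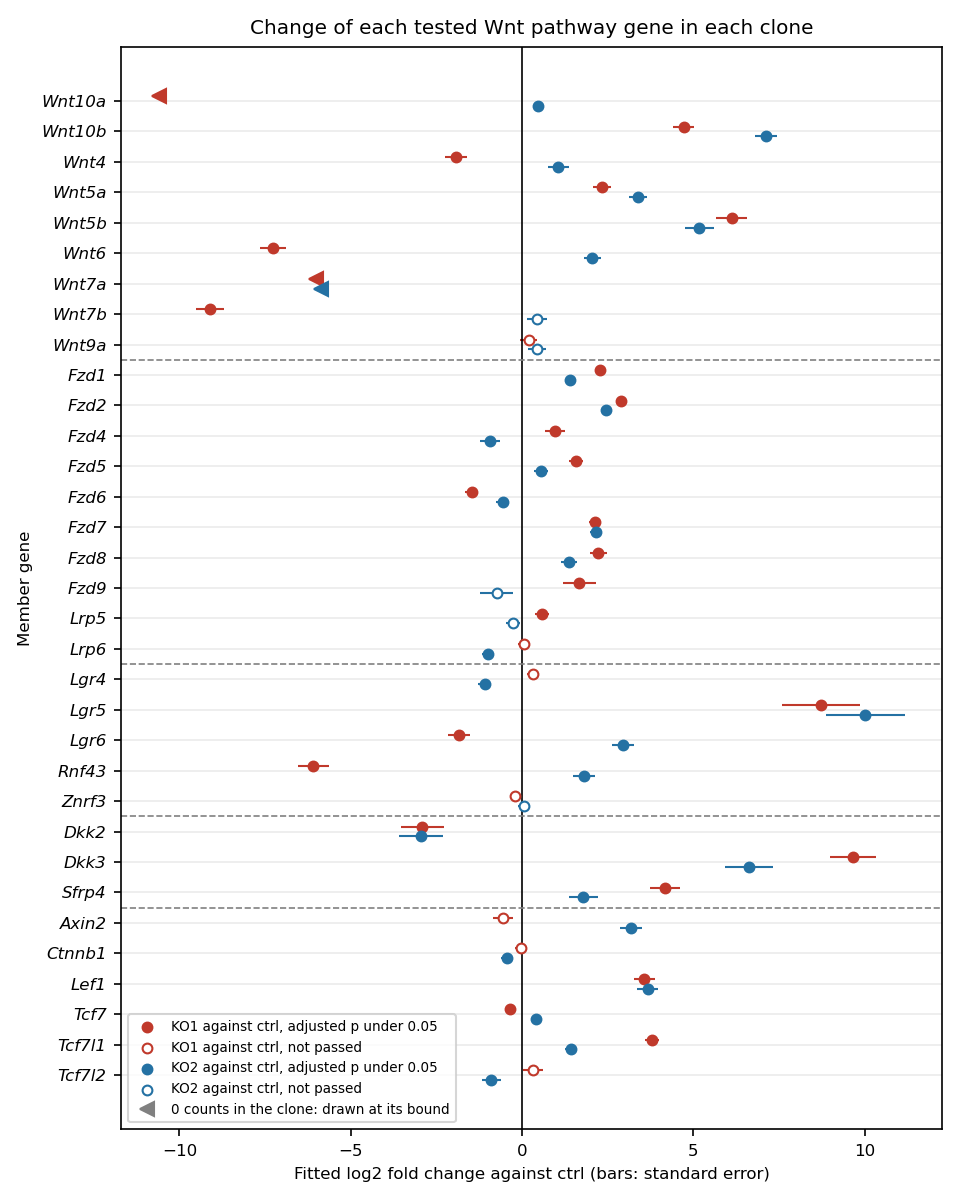
Fitted log2 fold change against Vcam1 ctrl (horizontal axis, bars are the standard error) of each tested Wnt pathway gene in KO1 (red) and KO2 (blue), with filled points for an adjusted p under 0.05. Triangles stand for genes at 0 counts in a whole clone, drawn at the smallest fold that 3 counts allow; the ligands spread on both sides of 0 in KO1, where 5 of 9 fell and 3 rose.

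Several ligands present in control and KO2 were near 0 in KO1. Of 9 tested ligands, 5 fell and 3 rose in KO1, while 1 fell and 6 rose in KO2, and none was higher in KO1 than in KO2 against 6 that were lower. That made 88.9% called in KO1, 77.8% in KO2 and 66.7% between the clones, against 59.9%, 51.4% and 38.7% of all genes. Wnt7b, a ligand of the beta-catenin branch with roles in lung and kidney development, stood at 181, 227 and 199.5 CPM in control, at 0.434, 0.511 and 0.112 CPM in KO1, and at 242, 272 and 306 CPM in KO2. It was close to absent from KO1 and abundant in both other groups. The log2 fold change was -9.11 ± 0.42 (standard error) in KO1 (adjusted p = 2.5e-07, edgeR) and 0.43 ± 0.28 in KO2, which did not pass (adjusted p = 0.23) although it did once KO1 replicate 3 was left out of the fit (0.44, adjusted p = 0.016).

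Wnt10a, a beta-catenin branch ligand known from skin, hair and teeth, was read at 59.2, 58.1 and 75.9 CPM in control and at 79, 88.9 and 100.3 CPM in KO2. It had 0 counts in all 3 KO1 libraries, which puts it at least 1557-fold lower in KO1 than in control and at least 2161-fold lower than in KO2, with 3 counts per library as the limit. Its rise in KO2 was small (log2 fold change 0.47 ± 0.15, adjusted p = 0.031, edgeR). That rise was lost without control replicate 1 or 2 (both adjusted p = 0.11), without KO2 replicate 2 (0.079) or 3 (0.12), without a filter on low counts (0.066) and with upper-quartile scaling (0.056).

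Wnt6, whose gene begins 19.6 kb from that of Wnt10a, followed it. Its levels were 4.66, 3.23 and 3.25 CPM in control, 0.0449, 0.0104 and 0.016 CPM in KO1 (5 counts in all) and 13.7, 15.6 and 16.9 CPM in KO2. Every KO2 library was above and every KO1 library below the control libraries. The ratio of control to KO1 was 177 (95% exact counting interval 75.6 to 547) and that of KO2 to KO1 was 699 (299 to 2154), and the rise in KO2 over control was 2.05 ± 0.25 on the log2 scale (adjusted p = 1e-04, edgeR). Of the 5 counts, KO1 replicate 1 held 3, and without it the fitted log2 fold change in KO1 moved from -7.27 to -8.07.

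Wnt4, a ligand with roles in kidney and reproductive tract development, had 4.73, 2.75 and 6.88 CPM in control, 1.45, 0.95 and 1.42 CPM in KO1 and 9.73, 9.76 and 10.5 CPM in KO2. The 3 groups did not overlap. It fell in KO1 (-1.92 ± 0.32, adjusted p = 0.00071, edgeR) and rose in KO2 (1.06 ± 0.31, adjusted p = 0.018), the latter no longer past the threshold without control replicate 1 or KO2 replicate 3 (both 0.054). Wnt7a, a close relative of Wnt7b that was below the level set for naming and is given here after its values were seen, was the only tested ligand lower in both clones. It stood at 2.15, 2.36 and 3.53 CPM in control and at 0 counts in all 6 clone libraries, at least 64.8-fold lower in KO1 and at least 58.2-fold lower in KO2.

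The ligands that rose in both clones were Wnt5a, Wnt5b and Wnt10b. Wnt5a, the archetype of beta-catenin-independent signalling, was read at 7.76, 11.2 and 4.88 CPM in control, at 38.5, 36.7 and 45 CPM in KO1 and at 87.4, 87.1 and 74.4 CPM in KO2. Its log2 fold change was 2.34 ± 0.26 in KO1 (adjusted p = 5e-05, edgeR) and 3.39 ± 0.27 in KO2 (7.9e-06), and KO2 lay above KO1 by a tested difference of 1.05 on the log2 scale (KO1 minus KO2 -1.05 ± 0.25, adjusted p = 0.0091). The 3 groups were in the order control, KO1, KO2 without overlap.

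Wnt5b, its close homologue, rose from 0.295, 0.185 and 0.645 CPM in control to 24.4, 18.3 and 36.8 CPM in KO1 and 13.3, 13.4 and 14.7 CPM in KO2. The rise was 6.12 ± 0.45 in KO1 (adjusted p = 3.6e-06, edgeR) and 5.18 ± 0.43 in KO2 (1e-05), and without control replicate 3, the highest control, it was 6.70 and 5.77. Here KO1 held the higher values, although the direct difference did not pass (0.94 ± 0.35, adjusted p = 0.059); it passed with DESeq2 (0.029), limma-voom (0.031), upper-quartile scaling (0.047) and no low-count filter (0.042).

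Wnt10b, a ligand known for its roles in bone and fat precursors, had 0.0877, 0.111 and 0.114 CPM in control, 3.29, 2.77 and 2.11 CPM in KO1 and 13.7, 11.4 and 17.9 CPM in KO2. The rise was 4.72 ± 0.30 in KO1 (adjusted p = 1.5e-06, edgeR) and 7.11 ± 0.32 in KO2 (3.2e-07), and the clones differed by -2.40 ± 0.24 (KO1 minus KO2, adjusted p = 0.00011). Wnt9a passed in no comparison and kept between 1.35 and 2.64 CPM in all 9 libraries.

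The other 10 ligands, Wnt1, Wnt2, Wnt2b, Wnt3, Wnt3a, Wnt8a, Wnt8b, Wnt9b, Wnt11 and Wnt16, were not tested. Wnt11 reached 38 counts in a control library and had 0 counts in all 6 clone libraries, and no other untested ligand had more than 6 counts in any library. The classical beta-catenin ligands Wnt1, Wnt3 and Wnt3a were thus at or near the limit of detection in these cells.

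To compare ligands with each other, levels were divided by the length of each gene's exons. The summed ligand level was 75.6 ± 5.7 CPM per kb (SD, n = 3) in control, 17.5 ± 4.1 in KO1 and 127 ± 12 in KO2, and the 3 groups did not overlap. In control, Wnt7b made up 58.0% ± 4.6 (SD, n = 3) and Wnt10a 34.5% ± 4.2 of that sum. In KO2 the same ligands led, with Wnt7b at 46.5% ± 1.1 and Wnt10a at 28.4% ± 0.75, followed by Wnt5a at 9.38% and Wnt6 at 5.85%. In KO1 they were replaced in rank by Wnt5b at 56.0% ± 6.9 and Wnt5a at 33.2% ± 4.1, so the leading ligands of KO1 were the 2 best known for signals that do not need beta-catenin, within a lower sum. These shares depend on the length taken: with the longest transcript in place of all exons, Wnt7b had 65.1% and Wnt10a 28.6% in control, in the same order.

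**Figure D3:**
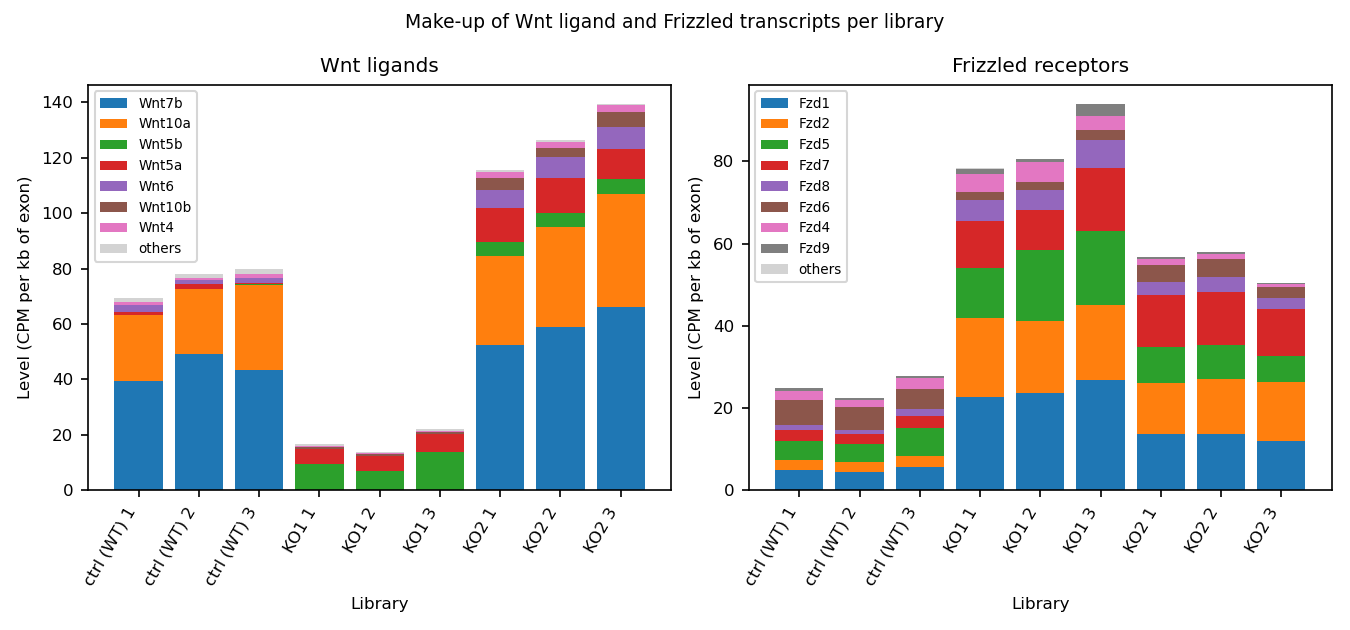
Level per kb of exon (CPM per kb, vertical axis) of the Wnt ligands (left) and the Frizzled receptors (right) in each of the 9 libraries, stacked by gene. The ligand bars of the 3 KO1 libraries (13.9 to 21.9 CPM per kb) hold almost no Wnt7b or Wnt10a, and the Frizzled bars of all 6 clone libraries (50.5 to 94.0) stand above those of control (22.5 to 27.7).

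The Frizzled receptors and their co-receptors Lrp5 and Lrp6 rose more often than they fell. Of 10 tested, 8 rose and 1 fell in KO1, 5 rose and 3 fell in KO2, and 8 were higher and 1 lower in KO1 than in KO2. Calls thus covered 90.0% in KO1, 80.0% in KO2 and 90.0% between the clones, against 59.9%, 51.4% and 38.7% of all genes. Summed per kb, the Frizzled genes stood at 24.99 ± 2.62 CPM (SD, n = 3) in control, 84.3 ± 8.5 in KO1 and 55.0 ± 4.0 in KO2. KO1, with the lowest summed ligand level, had the highest Frizzled sum. KO2, with the highest summed ligand level, also stood above control. Control cells spread their receptor RNA over Fzd6 (22.6%), Fzd5 (21.1%) and Fzd1 (19.97%). KO1 had most in Fzd1 (28.9%), Fzd2 (21.9%) and Fzd5 (18.7%), and KO2 in Fzd2 (24.5%), Fzd1 (23.7%) and Fzd7 (22.4%).

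Fzd1, Fzd2 and Fzd7, related receptors of the beta-catenin branch, rose in both clones. Fzd1 was at 20.8, 18.7 and 23.3 CPM in control, 94.8, 99.6 and 113 CPM in KO1 and 57.1, 57.3 and 50 CPM in KO2. The changes were 2.29 ± 0.12 in KO1 (adjusted p = 5.9e-07, edgeR) and 1.39 ± 0.12 in KO2 (1.3e-05), and the clones differed (0.90 ± 0.12, adjusted p = 0.00046). Fzd2 was at 8.57, 8.27 and 10.1 CPM in control, 70.4, 64.1 and 67 CPM in KO1 and 45.3, 49.3 and 52.8 CPM in KO2. It had the largest rise among the receptors in either clone, with 2.90 ± 0.12 in KO1 (1.4e-07) and 2.45 ± 0.12 in KO2 (4.7e-07). The difference between the clones at Fzd2 (0.45 ± 0.11, adjusted p = 0.012) was lost without KO1 replicate 1 (0.077), without KO2 replicate 1 (0.087) and without a low-count filter (0.065). Fzd7 was at 12.2, 11.3 and 14 CPM in control, 52.3, 44.1 and 69.1 CPM in KO1 and 57.6, 58.1 and 51.9 CPM in KO2. It rose by 2.14 ± 0.17 in KO1 (6.1e-06) and 2.16 ± 0.17 in KO2 (7.7e-06), and the difference between the clones did not pass (-0.02 ± 0.16, adjusted p = 0.94).

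Fzd8 and Fzd5 rose in both clones, more in KO1. Fzd8, a high-affinity receptor for many Wnt proteins, was at 7.4, 5.11 and 9.14 CPM in control, 30.2, 29.7 and 41.9 CPM in KO1 and 18.6, 21.7 and 16.2 CPM in KO2 (2.23 ± 0.24 and 1.38 ± 0.23, adjusted p = 3.9e-05 and 0.00084, edgeR). The excess of KO1 over KO2 (0.85 ± 0.23, adjusted p = 0.017) did not pass without KO1 replicate 3 (0.05) or KO2 replicate 1 (0.062) or 3 (0.072). Fzd5, a receptor prominent in gut epithelium, was at 32.3, 31.2 and 46.5 CPM in control, 84.9, 119 and 124 CPM in KO1 and 61.7, 56.9 and 44.1 CPM in KO2. KO1 was clear of control (1.58 ± 0.21, adjusted p = 0.00016), while KO2 replicate 3 lay below the highest control. The rise in KO2 (0.56 ± 0.21, adjusted p = 0.044) was lost with upper-quartile scaling (0.063), DESeq2 (0.052), no filter (0.051) and a filter at a mean of 1 CPM (0.064), and without control replicate 1 or 2 (both 0.14), KO1 replicate 2 (0.054) or KO2 replicate 1 (0.15) or 2 (0.11).

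Fzd6 and Fzd4 departed from this. Fzd6, a receptor tied to planar cell polarity, was at 27, 24.6 and 22 CPM in control, 8.24, 8.51 and 9.82 CPM in KO1 and 18.3, 19.5 and 11.8 CPM in KO2. It fell in KO1 by 1.47 on the log2 scale (standard error 0.20, adjusted p = 0.00017, edgeR) and in KO2 by 0.57 (0.033), the latter lost without control replicate 1 (0.11) or KO2 replicate 3 (0.058). Its share of the Frizzled level was 2.40% in KO1 and 6.80% in KO2. Fzd4, the receptor for norrin as well as Wnts, was at 13.6, 12.3 and 17.5 CPM in control, 29.3, 31.3 and 23.9 CPM in KO1 and 9.8, 8.77 and 4.29 CPM in KO2. The 3 groups did not overlap, with KO1 above control (0.96 ± 0.28, adjusted p = 0.015) and KO2 below it (-0.93 ± 0.29, adjusted p = 0.022). The first call was lost without control replicate 1 (0.054) or 2 (0.069), and the second without control replicate 3 (0.073), but the difference between the clones was 1.89 ± 0.29 (adjusted p = 0.0011). Fzd9 rose in KO1 (1.68 ± 0.47, adjusted p = 0.012) at levels of 6.66 CPM or below, and Fzd3 and Fzd10 had at most 18 counts and were not tested.

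The co-receptors Lrp5 and Lrp6 had no stable change from control in KO1. Lrp5 was at 311, 273 and 455 CPM in control, 549, 424 and 587 CPM in KO1 and 288, 291 and 284 CPM in KO2. KO1 replicate 2 lay below the highest control, and the call in KO1 (0.59 ± 0.20, adjusted p = 0.027, edgeR) was lost when any 1 of 6 libraries was left out: control replicate 1 (0.097) or 2 (0.14), KO1 replicate 1 (0.11) or 3 (0.069), or KO2 replicate 1 (0.062) or 3 (0.058). Lrp6 was at 102, 87 and 114 CPM in control, 89.8, 93.8 and 133 CPM in KO1 and 57.2, 49.9 and 44.4 CPM in KO2. All 3 KO2 libraries were below all others, a log2 fold change of -1.003 ± 0.18 (adjusted p = 0.0011), and KO1 did not pass (0.06 ± 0.17, adjusted p = 0.78).

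Of the 5 genes that set how many Frizzled receptors reach the cell surface, Rnf43 and Lgr6 were lower in KO1 and higher in KO2. Rnf43, the ubiquitin ligase that removes Frizzled receptors, was at 5.89, 5.13 and 8.3 CPM in control, 0.015, 0.115 and 0.144 CPM in KO1 and 25.2, 22.6 and 20 CPM in KO2. It was almost lost from KO1 (-6.10 ± 0.45, adjusted p = 3.7e-06, edgeR) and rose in KO2 (1.81 ± 0.33, adjusted p = 0.0014), a difference between the clones of -7.91 ± 0.47 (5.9e-06). Its relative Znrf3 stayed between 16 and 25 CPM in every library and passed in no comparison (KO1 minus KO2 -0.25 ± 0.17, adjusted p = 0.27), so of these 2 ligases Rnf43 alone was called lower in KO1.

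The R-spondin receptors did not move as a family. Lgr6 was at 7.89, 7.57 and 9.86 CPM in control, 2.38, 3.42 and 1.17 CPM in KO1 and 69.5, 69.7 and 56.1 CPM in KO2. It fell in KO1 (-1.85 ± 0.32, adjusted p = 8e-04, edgeR) and rose in KO2 (2.95 ± 0.32, adjusted p = 5.9e-05), without overlap between groups. Lgr5, known as a marker of intestinal stem cells, had 1, 4 and 1 counts in the control libraries (0.00797, 0.0738 and 0.0126 CPM), 3.67, 3.79 and 25.4 CPM in KO1 and 25.3, 22.6 and 32.1 CPM in KO2. It rose from the limit of detection in both clones, by 8.73 ± 1.13 in KO1 (adjusted p = 0.00013) and 10.02 ± 1.15 in KO2 (7.6e-05). KO1 replicate 3 was the only KO1 library at the KO2 level. With it, the difference between the clones did not pass (-1.29 ± 0.69, adjusted p = 0.17), although it did with limma-voom (-1.98, adjusted p = 0.02), and without it KO1 was lower (-2.84, adjusted p = 0.00024) and its rise over control was 7.20. Leaving out control replicate 1 or 2 moved that rise to 8.07 and 9.83 in KO1 and to 9.37 and 11.2 in KO2. Lgr4, the most widely expressed of the family, was at 39.8, 37.5 and 50.6 CPM in control, 60.1, 59.5 and 40.8 CPM in KO1 and 21.8, 20.1 and 18.1 CPM in KO2. It fell in KO2 (-1.09 ± 0.18, adjusted p = 0.00071) and did not pass in KO1 (0.33, adjusted p = 0.14) unless KO1 replicate 3 was left out (0.49, adjusted p = 0.019).

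Promoter sequences from RefSeq (GRCm38.p6, from 250 bases before to 50 bases after the annotated start) were read for 34 of the 50 genes, 44 promoters in all. They were richer in G and C than promoters at large, with a median GC content of 67.3% against 52.7% and a median of 24 against 7 CG dinucleotides. The sequences of 4 of the 6 genes that were lower in KO1 and higher in KO2 are shown because these genes moved together. Each runs 5′ to 3′ along its gene's strand, with every CG dinucleotide in capitals.
Wnt6, chr1:74771642-74771941, plus strand: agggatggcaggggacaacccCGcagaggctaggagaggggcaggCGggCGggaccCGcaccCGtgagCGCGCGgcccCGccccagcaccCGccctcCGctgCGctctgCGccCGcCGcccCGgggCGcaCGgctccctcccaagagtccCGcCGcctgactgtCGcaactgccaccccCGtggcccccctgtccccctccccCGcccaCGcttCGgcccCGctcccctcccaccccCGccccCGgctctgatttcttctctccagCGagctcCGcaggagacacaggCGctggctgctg
Rnf43, chr11:87662837-87663136, plus strand: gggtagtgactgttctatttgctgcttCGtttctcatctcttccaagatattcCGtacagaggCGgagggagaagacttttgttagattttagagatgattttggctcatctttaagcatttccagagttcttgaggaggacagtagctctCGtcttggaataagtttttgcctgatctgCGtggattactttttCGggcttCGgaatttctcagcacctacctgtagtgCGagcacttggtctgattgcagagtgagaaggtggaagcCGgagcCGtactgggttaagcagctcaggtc
Lgr6, chr1:135105227-135105526, minus strand: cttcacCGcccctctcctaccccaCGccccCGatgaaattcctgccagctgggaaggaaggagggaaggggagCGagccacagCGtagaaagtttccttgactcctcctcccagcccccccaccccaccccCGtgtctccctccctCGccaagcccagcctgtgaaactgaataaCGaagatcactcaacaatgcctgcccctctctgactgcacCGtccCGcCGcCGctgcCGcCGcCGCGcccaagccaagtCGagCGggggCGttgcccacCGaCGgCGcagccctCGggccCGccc
Wnt4, chr4:137277385-137277684, plus strand: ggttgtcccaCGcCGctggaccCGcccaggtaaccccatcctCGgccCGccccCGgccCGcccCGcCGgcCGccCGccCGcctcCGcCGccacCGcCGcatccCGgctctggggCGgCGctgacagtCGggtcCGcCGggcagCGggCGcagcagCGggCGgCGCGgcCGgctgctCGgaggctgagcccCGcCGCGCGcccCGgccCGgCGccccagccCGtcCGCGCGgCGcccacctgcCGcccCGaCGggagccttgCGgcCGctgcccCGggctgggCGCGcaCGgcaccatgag
The CG count was 31 for Wnt6, 10 for Rnf43, 24 for Lgr6 and 51 for Wnt4. A further Rnf43 promoter held 3, and the promoters of Tcf7, another of the 6 genes, held 45 and 17.

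The preferred DNA words of the TCF and LEF factors, CTTTGAT and CTTTGAA, were searched on both strands. They do not overlap as words, and either was present in 8.65% of all 32851 promoters of that length (CTTTGAT in 3.73% and CTTTGAA in 5.14%). Among the 44 promoters of the Wnt genes, 3 held a match, 1 each of Dkk1, Wnt11 and Wnt5b. Wnt5b is the only 1 of the 3 that was abundant enough to test. Its promoters at chr6:119544298-119544597 and chr6:119467162-119467461 held neither word. Its promoter with the match is shown, with the match in capitals, starting at base 180 of 300.
Wnt5b, chr6:119449337-119449636, minus strand: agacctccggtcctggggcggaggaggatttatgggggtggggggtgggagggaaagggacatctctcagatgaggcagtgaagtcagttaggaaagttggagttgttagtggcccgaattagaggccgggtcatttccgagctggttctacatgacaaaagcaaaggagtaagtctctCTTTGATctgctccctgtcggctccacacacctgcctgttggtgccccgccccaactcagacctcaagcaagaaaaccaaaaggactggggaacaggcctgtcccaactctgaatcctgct
A match describes the letters in this window only.

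The secreted antagonists were low in control cells, and 3 of 8 could be tested. Sfrp4, which binds Wnt proteins outside the cell, was at 0.311, 0.572 and 0.139 CPM in control, 5.36, 7.51 and 5.22 CPM in KO1 and 1.25, 1.16 and 1.04 CPM in KO2. It rose in both clones (4.18 ± 0.45 and 1.79 ± 0.42, adjusted p = 3.9e-05 and 0.006, edgeR), further in KO1 (difference 2.39 ± 0.40, adjusted p = 0.0018). Dkk3, a divergent Dickkopf protein, and Dkk2, which binds LRP5 and LRP6, were below the level set for naming and are given after their values were seen. Dkk3 had 1 count in all control libraries together, 3.13, 3.26 and 6.77 CPM in KO1 and 0.6, 0.608 and 0.414 CPM in KO2. The ratio of KO1 to control was 1086 (95% exact counting interval 194 to 42918) and that of KO2 to control was 139 (24.5 to 5559). Dkk2 fell in both clones (-2.90 ± 0.63 and -2.95 ± 0.64, adjusted p = 0.003 and 0.0039), from 0.263 to 0.48 CPM in control to 0.103 CPM or below in the clones. Dkk1, the best known inhibitor of LRP5 and LRP6, was at 0.00797, 0 and 0.0253 CPM in control, 0.0898, 0.0939 and 0.0319 CPM in KO1 and 0, 0.0141 and 0.0444 CPM in KO2. These levels, at most 9 counts in a library, were too low to test, and Dkk4, Sfrp1, Sfrp2 and Sfrp5 had at most 19.

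Ctnnb1, encoding beta-catenin itself, was at 763, 721 and 1113 CPM in control, 894, 810.1 and 836 CPM in KO1 and 648, 659.8 and 595 CPM in KO2. It did not pass in KO1 (-0.03 ± 0.17, adjusted p = 0.88, edgeR) and was lower in KO2 (-0.45 ± 0.17, adjusted p = 0.049). That fall was lost without control replicate 3 (-0.23, adjusted p = 0.15), the highest library, without KO1 replicate 1 (0.069) or 2 (0.068), without any KO2 replicate (0.1, 0.095 and 0.13) and without a low-count filter (0.052). RNA levels say nothing on the stability of the protein, at which Wnt signalling acts.

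Lef1 and Tcf7l1 rose in both clones. Lef1, the family member that is itself a common Wnt target, was at 0.414, 0.369 and 0.291 CPM in control, 3.28, 3.51 and 6.03 CPM in KO1 and 4.39, 4.51 and 4.93 CPM in KO2 (3.56 ± 0.31 and 3.67 ± 0.31, adjusted p = 9.3e-06 and 1e-05, edgeR). The difference between the clones at Lef1 did not pass (-0.11 ± 0.27, adjusted p = 0.77). Tcf7l1, the member best known as a repressor, was at 7.7, 5.04 and 5.55 CPM in control, 79.7, 72 and 102 CPM in KO1 and 16.9, 17.1 and 15.4 CPM in KO2. It rose by 3.79 ± 0.20 in KO1 (adjusted p = 5.6e-07) and 1.43 ± 0.19 in KO2 (0.00017), so that KO1 exceeded KO2 by 2.36 ± 0.19 (2.9e-05).

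Tcf7 and Tcf7l2 changed less. Tcf7, which encodes TCF1, was at 29.8, 27.6 and 26.3 CPM in control, 23.8, 20.6 and 21.5 CPM in KO1 and 36.8, 36.4 and 37.3 CPM in KO2. The groups did not overlap, but the changes were small (-0.35 ± 0.11 in KO1, adjusted p = 0.018, and 0.40 ± 0.11 in KO2, adjusted p = 0.01, edgeR). The fall in KO1 was lost without control replicate 1 (0.066) or KO1 replicate 2 (0.072), and the rise in KO2 without a low-count filter (0.081). Tcf7l2, the main TCF of many epithelia, was at 31.5, 21.6 and 34.2 CPM in control, 29.1, 25.7 and 54.3 CPM in KO1 and 16.6, 14.6 and 15.8 CPM in KO2. It fell in KO2 (-0.89 ± 0.28, adjusted p = 0.024). That call was lost without control replicate 1 (0.066) or 3 (0.074) or without any KO2 replicate (0.051, 0.074 and 0.054), although all KO2 libraries were below all others.

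Axin2, the feedback inhibitor most used as a readout of beta-catenin activity, separated the clones. It was at 0.948, 0.867 and 0.986 CPM in control, 0.674, 0.668 and 0.559 CPM in KO1 and 6, 6.9 and 12.6 CPM in KO2. It rose in KO2 (3.18 ± 0.31, adjusted p = 2.7e-05, edgeR) and did not pass in KO1 (-0.56 ± 0.30, adjusted p = 0.14), although every KO1 library was below every control library and the call was made without KO2 replicate 3 (-0.61, adjusted p = 0.038). The clones differed by -3.74 ± 0.32 (4.2e-05).

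Other widely used targets of beta-catenin were read from a list of 27, of which 26 were tested. In KO1, 7 were higher and 13 lower than in control, and in KO2, 13 were higher and 9 lower. Between the clones, 6 were higher and 14 lower in KO1. That made 76.9% called in KO1, 84.6% in KO2 and 76.9% between the clones, against 59.9%, 51.4% and 38.7% of all genes. The median log2 fold change was -1.15 in KO1 and 0.78 in KO2. Among those with a mean of at least 5 CPM in a group, the largest changes of 1 sign in both clones were at Dact1, Klf5 and Tbx3. Dact1, a regulator of Dishevelled, rose from 0.207, 0.0738 and 0.0759 CPM in control to 24.2, 20.6 and 57.1 CPM in KO1 and 10.5, 8.36 and 4.73 CPM in KO2 (8.002 ± 0.64 and 5.89 ± 0.60, adjusted p = 5.9e-06 and 3.6e-05, edgeR). Without control replicate 1 these rises were 8.78 and 6.67, and without KO1 replicate 3 the rise in KO1 was 7.40. Klf5, an epithelial transcription factor, fell from 104, 107 and 101 CPM to 0.584, 0.897 and 0.335 CPM in KO1 and 6.87, 5.22 and 3.08 CPM in KO2 (-7.39 ± 0.41 and -4.36 ± 0.35, adjusted p = 7.5e-07 and 8.4e-06). Tbx3, a transcription factor of the liver and limb, rose from 0.12, 0.0738 and 0.24 CPM to 0.674, 0.95 and 0.75 CPM in KO1 and 6.01, 5.74 and 8.21 CPM in KO2 (2.42 ± 0.39 and 5.49 ± 0.41, adjusted p = 0.00049 and 5.3e-06).

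Notum, Nkd1, Tnfrsf19, Sp5 and Apcdd1, feedback or target genes of the pathway, were chosen after their values were seen because the clones differed there. Notum, an enzyme that inactivates Wnt proteins, was at 6.79, 6.11 and 7.22 CPM in control, 2.4, 2.54 and 2.67 CPM in KO1 and 38.4, 40.9 and 56.8 CPM in KO2 (-1.41 ± 0.17 and 2.76 ± 0.18, adjusted p = 9e-05 and 2e-06, edgeR). Nkd1, which acts on Dishevelled, was at 1.94, 1.83 and 1.2 CPM in control, 0.913, 0.824 and 1.28 CPM in KO1 and 18.2, 20.2 and 16.3 CPM in KO2. Its rise in KO2 was 3.46 ± 0.25 (4.6e-06), and its fall in KO1 (-0.73 ± 0.24, adjusted p = 0.027) was lost without control replicate 1 (0.093), KO1 replicate 1 (0.057) or 2 (0.094), and with limma-voom (0.051). Tnfrsf19, a receptor known as a target of beta-catenin, was at 2.73, 3.62 and 3.48 CPM in control, 0.524, 0.407 and 0.511 CPM in KO1 and 19.6, 17 and 12.1 CPM in KO2. Sp5, a repressor of TCF and LEF targets, had 4 counts in KO1, a ratio of control to KO1 of 30.5 (95% exact counting interval 11.6 to 113), and 1.44, 1.91 and 2.04 CPM in KO2. Apcdd1, an inhibitor of Wnt at the cell surface, was at 12.1, 10.8 and 12.9 CPM in control, 16, 18.9 and 11.5 CPM in KO1 and 79, 83.9 and 97 CPM in KO2. It rose in KO2 (2.86 ± 0.19, adjusted p = 2.4e-06), and in KO1 it passed only without KO1 replicate 3 (0.56, adjusted p = 0.007). These genes were at their highest in KO2, as Axin2 and Rnf43 were. Because they were chosen for differing between the clones, that likeness is not separate evidence of a shared pattern.

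Ccnd1 and Myc, proliferation targets picked outside the rule for naming, behaved differently. Their calls were not checked with libraries left out or with other settings. Ccnd1, encoding cyclin D1, was at 1175, 1184 and 1103 CPM in control, 66.7, 103 and 66.1 CPM in KO1 and 453, 496 and 465 CPM in KO2. Myc was at 196, 243 and 223 CPM in control, 17.4, 36 and 48.5 CPM in KO1 and 146, 111 and 58.9 CPM in KO2. Both fell in both clones (Ccnd1 -3.87 ± 0.20 and -1.29 ± 0.18, adjusted p = 4.1e-07 and 0.00023; Myc -2.70 ± 0.40 and -1.07 ± 0.38, adjusted p = 0.00033 and 0.041, edgeR), lowest in KO1. Many other inputs also set the level of both genes.

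**Figure D4:**
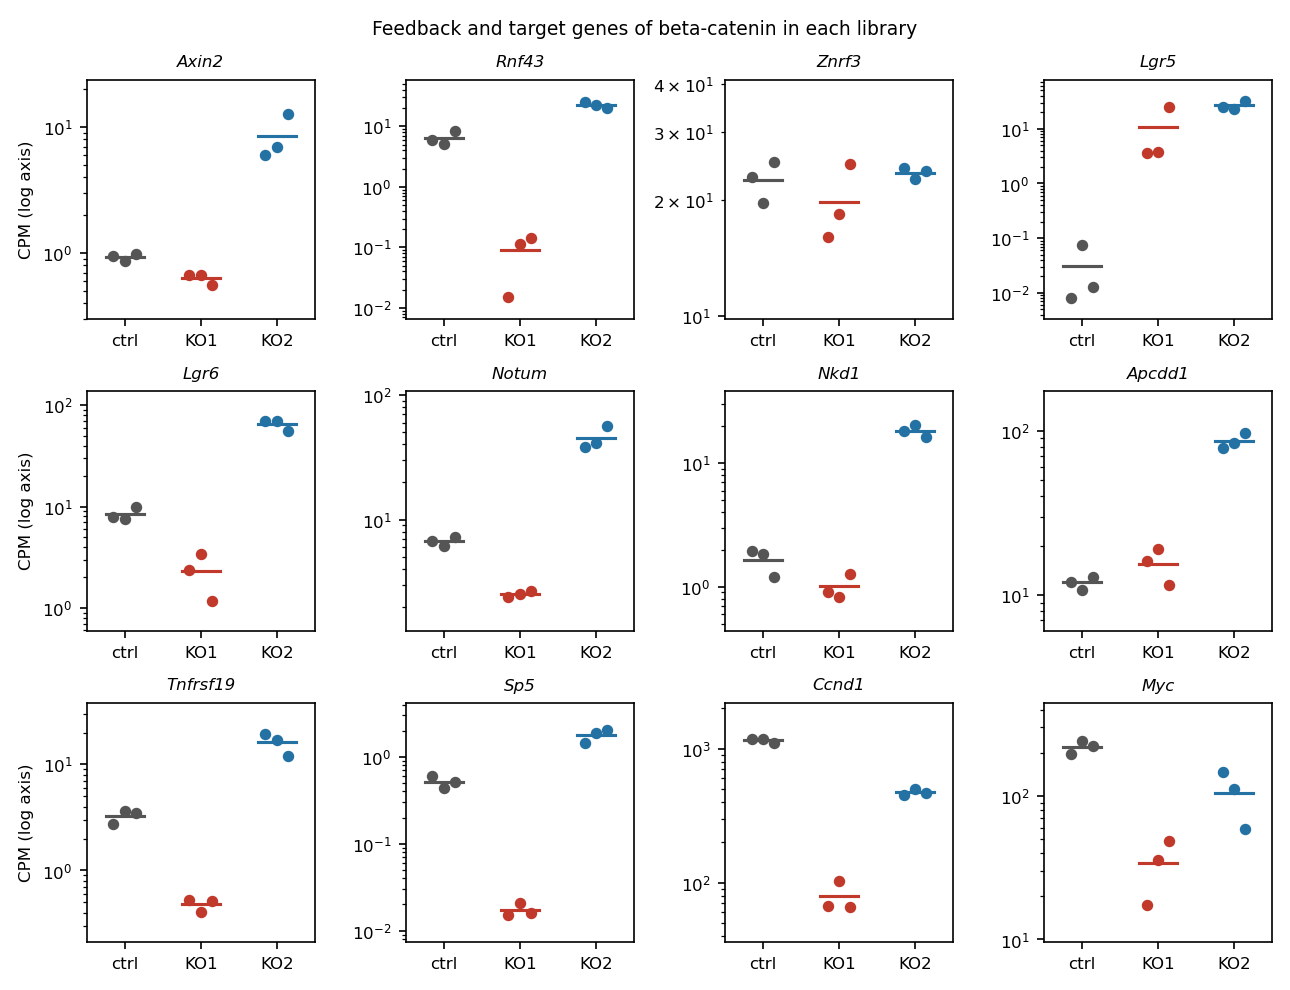
CPM in each library (points, log axis) and the mean of each group (lines) for 12 feedback and target genes of beta-catenin in Vcam1 ctrl, KO1 and KO2 cells. Axin2, Rnf43, Lgr6, Notum, Nkd1, Apcdd1, Tnfrsf19 and Sp5 are highest in the 3 KO2 libraries. Znrf3 lies between 16 and 25 CPM in every library, and Ccnd1 and Myc are highest in control. Notum, Nkd1, Apcdd1, Tnfrsf19 and Sp5 were chosen because the clones differed there.

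Genes for making, releasing and capturing Wnt proteins were examined in a list of 22 in the table, 15 of them tested. In KO1, 7 were higher and 2 lower, and in KO2, 9 were higher and 3 lower. The 9 of 15 called in KO1 were close to the 59.9% of all genes, so that count shows nothing particular to this list. In KO2 calls covered 80.0%, against 51.4% of all genes. Adgra2 and Reck, which together act as a co-receptor for WNT7A and WNT7B, both rose in the clones. Adgra2 was at 26.7, 39.9 and 16.9 CPM in control, 434, 399 and 624 CPM in KO1 and 394, 398 and 335 CPM in KO2 (4.13 ± 0.32 and 3.76 ± 0.32, adjusted p = 5.3e-06 and 1.1e-05, edgeR). Reck was at 1.2, 0.794 and 0.809 CPM in control, 7.65, 7.27 and 9.19 CPM in KO1 and 3.07, 2.91 and 2.72 CPM in KO2. Reck rose by 3.09 ± 0.23 in KO1 and 1.62 ± 0.22 in KO2 (4.2e-06 and 0.00025). Frzb, a soluble Frizzled-related antagonist, rose from 0.0319, 0.0554 and 0.0379 CPM in control to 14.9, 12.8 and 19.7 CPM in KO1 and 0.188, 0.184 and 0.163 CPM in KO2 (8.59 ± 0.31 and 2.13 ± 0.34, adjusted p = 8.5e-08 and 0.00065).

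Porcn, Wls and Rspo3 were picked after their values were seen. Porcn, the enzyme that attaches the lipid to Wnt proteins, fell in both clones, from 22.7, 22.4 and 36.7 CPM in control to 4.54, 4.72 and 8.68 CPM in KO1 and 6.89, 5.61 and 3.02 CPM in KO2 (-2.19 ± 0.37 and -2.40 ± 0.38, adjusted p = 0.00072 and 0.00054, edgeR). Wls, which carries Wnt proteins to the cell surface, rose in both, by 0.88 ± 0.16 and 0.98 ± 0.16 (adjusted p = 0.0012 and 8e-04). Rspo3, an R-spondin and ligand of the LGR receptors, was at 0.148 CPM or below in control and KO1 and at 8.29, 7.61 and 10.6 CPM in KO2 (6.27 ± 0.36, adjusted p = 1.1e-06). KO2 thus held the highest level of Rspo3 as well as of Lgr6.

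Of 16 genes of the destruction complex and the Dishevelled step, 7 rose and 4 fell in KO1, and 4 rose and 5 fell in KO2, with a median of 0.20 and 0.03. The shares called, 68.8% and 56.2%, were near those of all genes (59.9% and 51.4%). Amer1, a scaffold that brings APC to the membrane, was at 6.74, 5.65 and 6.73 CPM in control, 21.4, 23.2 and 22.2 CPM in KO1 and 26.6, 24.2 and 25.5 CPM in KO2 (1.80 ± 0.12 and 1.99 ± 0.13, adjusted p = 2.5e-06 and 1.9e-06, edgeR). Btrc, the adaptor that recognises marked beta-catenin, rose by 0.67 ± 0.09 and 0.59 ± 0.09 (0.00021 and 0.00056). Axin1, the scaffold of the complex, rose by 0.66 ± 0.10 in KO2 (0.00049). Its rise of 0.28 ± 0.10 in KO1 (adjusted p = 0.035) was lost with DESeq2 (0.061), without a low-count filter (0.27) and when any 1 of 8 libraries was left out, every library but control replicate 1 (adjusted p between 0.061 and 0.21).

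Of 15 tested genes of planar polarity and the Wnt receptors outside the Frizzled family, 7 rose and 6 fell in KO1, and 6 rose and 3 fell in KO2. Calls covered 86.7% in KO1, against 59.9% of all genes. In KO2, 9 of the 15 were called, near the 51.4% of all genes. Celsr1 and Celsr2, cadherins of the polarity complex, fell in both clones, while the cytoplasmic polarity protein Prickle1 rose in both. Celsr1 was at 160.0, 132 and 240.4 CPM in control, 0.314, 0.157 and 0.0479 CPM in KO1 and 4.49, 3.51 and 2.91 CPM in KO2 (-9.99 ± 0.50 and -5.61 ± 0.39, adjusted p = 3.8e-07 and 3.2e-06, edgeR). Without KO1 replicate 1 the fall in KO1 was -10.7. Celsr2 was at 38.8, 23 and 55.4 CPM in control, 8.52, 6.18 and 11.1 CPM in KO1 and 3.63, 3.07 and 1.91 CPM in KO2. Prickle1 was at 2.75, 2.23 and 1.8 CPM in control, 17.9, 18.6 and 24.2 CPM in KO1 and 39.5, 35.6 and 30.7 CPM in KO2 (3.16 ± 0.21 and 3.96 ± 0.21, adjusted p = 1.7e-06 and 8e-07). The 3 groups were without overlap at each of these genes.

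Of 14 tested coactivators and corepressors of beta-catenin, 7 rose and 4 fell in KO1, and 5 rose and 2 fell in KO2. Calls covered 78.6% in KO1, against 59.9% of all genes. In KO2, 7 of the 14 were called, close to the 51.4% of all genes, so that count shows nothing particular to this list. Pygo1, which links beta-catenin to chromatin, rose from 0.12, 0.129 and 0.139 CPM in control to 25.1, 21.5 and 32.9 CPM in KO1 and 19.8, 18.9 and 16.5 CPM in KO2 (7.67 ± 0.25 and 7.15 ± 0.24, adjusted p = 5.2e-08 and 8.4e-08, edgeR). Tle4 and Tle2 encode Groucho corepressors, which bind TCF factors when beta-catenin is absent. Tle4 fell from 36.4, 32.6 and 38.5 CPM in control to 2.43, 2.75 and 2.59 CPM in KO1 and 5.21, 4.92 and 4.19 CPM in KO2 (-3.79 ± 0.15 and -2.91 ± 0.15, adjusted p = 1.2e-07 and 6e-07). Tle2 rose from 13.9, 7.86 and 17.4 CPM in control to 125, 135 and 346 CPM in KO1 and 67.5, 59 and 58.8 CPM in KO2 (3.95 ± 0.44 and 2.24 ± 0.41, adjusted p = 5.3e-05 and 0.0015). KO1 replicate 3 was the highest library at Tle2, and without it the rise in KO1 was 3.32.

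Since Wnt10a and Wnt6 lie side by side, the genes around the ligands that KO1 lacked were read in the same fit. Within 250 kb of Wnt10a, 12 other genes were tested, of which 4 fell and 4 rose in KO1 and 3 fell and 6 rose in KO2. Among all genes, 59.9% were called in KO1 and 51.4% in KO2, so with 12 genes or fewer in a window these counts say nothing particular to it. Not every gene in the window fell in KO1. Those that did were Wnt6 itself, Bcs1l, Cyp27a1 and Cdk5r2, and all of these but Wnt6 also fell in KO2. Around Wnt7b, 8 were tested, with 3 lower and 3 higher in each clone. The antisense RNA AU022754, which starts 2.22 kb from Wnt7b, had a mean of 0.663 CPM in control, 0 counts in KO1 (at least 16.03-fold lower) and a mean of 1.12 CPM in KO2, the pattern of its neighbour. The libraries were stranded and counted by strand. Around Rnf43, 8 genes were tested, with 5 lower and 2 higher in KO1 and 1 lower and 3 higher in KO2. The 5 include the small nuclear RNAs Rnu1a1 and Gm22068. Their group means were identical (0.917 CPM in control, 0.089 CPM in KO1), so they need not be separate signals. Around Wnt7a, 8 were tested, with 3 lower and 2 higher in KO1 and 4 lower and 1 higher in KO2.

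**Figure D5:**
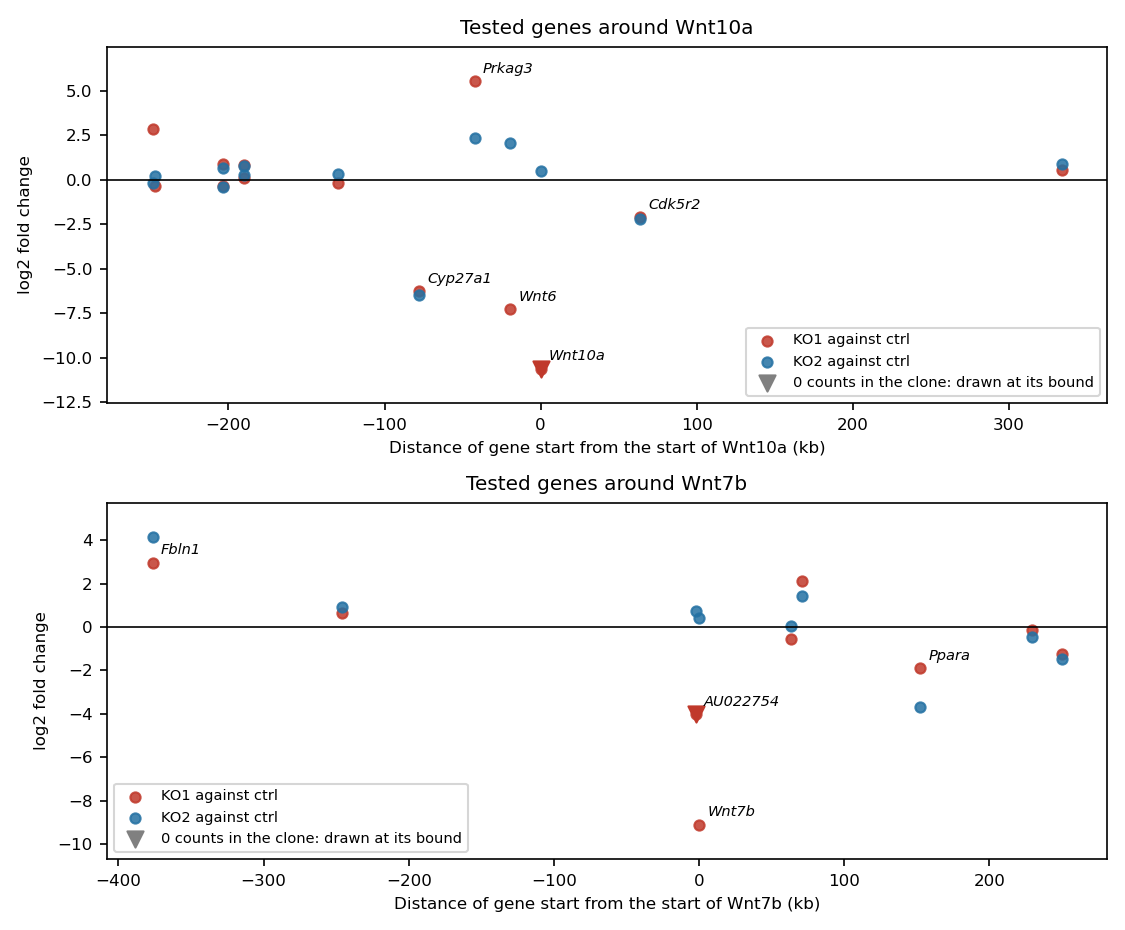
log2 fold change against Vcam1 ctrl (vertical axis) of the tested genes with any part within 250 kb of Wnt10a (top) and Wnt7b (bottom), by the distance of their start from that of the ligand in kb, for KO1 (red) and KO2 (blue). Triangles are genes with 0 counts in KO1, drawn at their bound; next to Wnt10a, Wnt6 is below 0 in KO1 and above 0 in KO2, and so is AU022754 next to Wnt7b.

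When the libraries of both clones were pooled as 6 against the 3 control libraries, the design the study used, 16 of the 33 genes passed (48.5%), 13 higher and 3 lower, against 43.0% of all genes, 21.7% higher and 21.2% lower. Pooling set the differences between the clones into the spread. Wnt7b (-0.56 ± 1.82, adjusted p = 0.82, edgeR), Wnt10a (-0.53 ± 1.96, 0.85), Rnf43 (0.82 ± 1.70, 0.72), Wnt6 (1.05 ± 1.82, 0.67) and Axin2 (2.29 ± 1.11, 0.12) did not pass there, although each differed in at least 1 clone. All 5 passed with the average of the clones' contrasts, at -4.34 for Wnt7b (7.3e-07), -7.39 for Wnt10a (1.5e-07), -2.14 for Rnf43 (0.00023), -2.61 for Wnt6 (2.2e-05) and 1.31 for Axin2 (0.0022), so that Rnf43 and Wnt6 changed sign. The value for Wnt10a rests on 0 counts in KO1 and depends on the prior count. Genes called in the same direction in both clones did pass, among them Fzd2 (2.69 ± 0.19, adjusted p = 7.1e-06), Fzd7 (2.15 ± 0.16, 1.1e-05), Lef1 (3.62 ± 0.32, 2.5e-05), Wnt5b (5.73 ± 0.59, 6.8e-05), Wnt5a (2.95 ± 0.43, 0.00053) and Lgr5 (9.45 ± 1.28, 0.00035).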

How the data were processed

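RNA from PPTR cells labelled WT (Vcam1 ctrl), KO1 and KO2, 3 libraries each, was sequenced in paired-end stranded mRNA libraries. The authors estimated counts with kallisto (version 0.46.1, reverse-stranded, bias correction) on GENCODE vM24 transcripts of GRCm38. They deposited the estimated counts per gene symbol, not scaled. Counts were rounded to whole numbers here before use. Reads shared by close paralogs are split by estimate. Here genes were filtered with filterByExpr, leaving 17672 of 55276 symbols, scaled with TMM and tested with the quasi-likelihood test of edgeR (version 4.0.16, R 4.3.3) in 1 fit over the 3 groups, with Benjamini-Hochberg adjustment over all genes tested. Pooled clones against control were fitted separately. A call is an adjusted p under 0.05. The step was tested on simulated data first. Library totals ran from 53415907 to 125223073 counts, and counting intervals cover counting error only.

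Values in every library are given for Wnt genes with a mean of at least 5 CPM in a group and a call in any comparison, and for Axin2, Lef1, Tcf7, Ctnnb1, Lgr5 and Dkk1 in any case. Of each surrounding list, at most the 3 genes at that level with the largest change of 1 sign in both clones are named by rule. Other listed genes given, such as Notum, Porcn, Ccnd1 and Myc, were picked outside that rule. The genes and lists were chosen with earlier results of these data known. Exon lengths came from GENCODE vM21 and promoters from RefSeq (GRCm38.p6). Alternatives were upper-quartile scaling, DESeq2 (version 1.42.0), limma-voom (limma version 3.58.1, the study's test), no filter or a filter at a mean of 1 CPM, the average of the clones' contrasts, and leaving out each library. The longest transcript as length, and genes at 0 set to their bound, were added after the data were seen. Some alleles of the PPTR model are not reported here.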

Additional observations from a re-analysis of the deposited data

Results flagged for a closer look

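The contrast between the clones was itself tested (edgeR's quasi-likelihood test). It was passed by 24 of the 33 tested Wnt genes (72.7%), against 38.7% of all genes. The genes named with values in every library were chosen in part for passing in a comparison, this one included. Their count is therefore not a separate result. Of the named genes, 22 differed between KO1 and KO2. Given as KO1 minus KO2 on the log2 scale, the 6 ligands among them were lower in KO1: Wnt10a by a fitted -15.72, a value that depends on the prior count because KO1 had 0 counts, Wnt7b by -9.54, Wnt6 by -9.32, Wnt4 by -2.97, Wnt10b by -2.40 and Wnt5a by -1.05. Among the genes that act on Frizzled turnover and feedback, Rnf43 was at -7.91, Lgr6 at -4.80 and Axin2 at -3.74, with Lgr4 the other way at 1.42.

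The receptors were higher in KO1, with Fzd4 at 1.89, Lrp6 at 1.07, Fzd5 at 1.01, Fzd1 at 0.90, Lrp5 at 0.85, Fzd8 at 0.85 and Fzd2 at 0.45, except Fzd6 at -0.90. The antagonist Sfrp4 was at 2.39. Of the TCF factors, Tcf7l1 was at 2.36 and Tcf7l2 at 1.21, while Tcf7 was at -0.75.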

How the results depend on the processing

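Counts of Wnt genes called kept within 1.5 times under every alternative, with these exceptions. Genes lower in KO2 than in control numbered 8, and 5 to 9 with 1 library left out, 5 without control replicate 3. Genes lower in the pooled clones numbered 3, but 1 with a filter at a mean of 1 CPM and 8 with the average of the clones' contrasts. Under that average, in which each clone counts on the log scale, Rnf43 turned from 0.82 to -2.14, Wnt6 from 1.05 to -2.61 and Sp5 from 0.80 to -1.49. With 1 library left out, genes higher in KO1 numbered 14 to 16, lower in KO1 9 to 12, higher in KO2 17 to 21, higher in KO1 than KO2 11 to 15 and lower 11 to 13. Over single genes, leaving out a library left 1743 values on their side of the threshold, took 80 from past it and brought 12 past it. No paired analysis was possible because the labels carry no replicate number shared between the groups. Each clone is 1 edited cell's progeny, so more libraries of it would not separate the edit from the clone. Depth limits the genes at or under 3 counts in a library.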
